A study of Mus musculus with 12 samples.

Results

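The genes described here encode mainly the molecular chaperones of the cytosol, nucleus and mitochondria and their helpers. They were taken by gene symbol: the Hsp70 genes (Hspa), small heat shock protein genes (Hspb), Hsp90 genes of the cytosol, J proteins (Dnaja, Dnajb and Dnajc), subunits of the CCT chaperonin (Cct) and BAG proteins, with Hspd1, Hspe1, Hsph1 and the transcription factors Hsf1 and Hsf2. Of the genes for endoplasmic reticulum proteins, 6 chaperones (Hspa5, Hsp90b1, Dnajb9, Dnajb11, Dnajc3 and Dnajc10) were left out by name. Any others with a matching symbol, such as Dnajb12, stayed in. Of 53379 gene IDs, 87 had such a symbol, and the 73 with at least 10 counts in 3 or more of the 12 libraries form the chaperone set. All 73 also passed the filter on low counts and were tested. The rule itself used names and a count minimum over all libraries and no difference between groups. The set and the classes described below were, however, chosen with earlier results of these data known.

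Each library held RNA from interscapular brown fat of 2 C57BL/6 mice aged 12 weeks, pooled at 250 ng per mouse to 500 ng, with 3 such pools in each of 4 groups. Mice with the Cdk7 deletion that the labels call Cdk7 bKO (KO), specific to brown adipose tissue by the title of the series, were taken after 6 h of cold, and so were wild-type littermate controls (WT). KO and WT mice were likewise taken at room temperature, and all were killed at zeitgeber time 9. The sources used here do not give the promoter driving the deletion, the animals' sex, how cold the cage was or the library kit. The labels call the groups biological triplicates. The pools are numbered 4 to 6 in the KO group at room temperature and 1 to 3 in the other groups.

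Hsp70 binds short hydrophobic stretches of unfolded proteins in a cycle driven by ATP. J proteins start that cycle, BAG and Hsp110 proteins release the nucleotide, Hsp90 acts later on folding clients such as kinases and receptors, and small heat shock proteins hold unfolded proteins without using ATP. When unfolded proteins accumulate, Hsf1 binds heat shock elements, which are inverted repeats of GAA, and raises the inducible chaperone genes. Brown fat makes heat in mitochondria whose proteins are mostly imported unfolded, with mortalin (Hspa9) pulling them in and the Hsp60 and Hsp10 chaperonin (Hspd1 and Hspe1) folding them.

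The promoters of 3 heat-inducible genes, and the heat shock element between Hspd1 and Hspe1, are shown as examples of this element. Some genes with the element are among those with the largest cold responses below, but Dnajb1 and Hspa4l also rose and their windows held no match. The part of the element in the cold responses was not tested. Each is RefSeq sequence of GRCm38.p6, read 5′ to 3′ on the strand of the gene. For Hspa1a, Hspa1b and Hspb1 it is the 250 bases before the start site, and for Hspe1 it is 30 bases within them that lie in an annotated exon of an Hspd1 isoform on the opposite strand. Capitals mark GAANNTTC, where N is any base, and for Hspe1 a run of adjoining units of GAA in alternating orientation that contains it.
Hspa1a, chr17:34972157-34972406, minus strand: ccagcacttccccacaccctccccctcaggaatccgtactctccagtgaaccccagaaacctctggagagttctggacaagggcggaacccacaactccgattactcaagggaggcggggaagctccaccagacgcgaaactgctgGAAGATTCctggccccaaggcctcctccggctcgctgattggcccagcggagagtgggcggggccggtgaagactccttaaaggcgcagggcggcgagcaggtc
Hspa1b, chr17:34959239-34959488, minus strand: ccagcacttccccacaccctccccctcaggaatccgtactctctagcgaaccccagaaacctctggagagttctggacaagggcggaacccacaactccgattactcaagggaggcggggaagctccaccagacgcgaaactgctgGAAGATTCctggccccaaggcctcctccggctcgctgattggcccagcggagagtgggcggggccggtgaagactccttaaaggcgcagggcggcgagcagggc
Hspb1, chr5:135887669-135887918, plus strand: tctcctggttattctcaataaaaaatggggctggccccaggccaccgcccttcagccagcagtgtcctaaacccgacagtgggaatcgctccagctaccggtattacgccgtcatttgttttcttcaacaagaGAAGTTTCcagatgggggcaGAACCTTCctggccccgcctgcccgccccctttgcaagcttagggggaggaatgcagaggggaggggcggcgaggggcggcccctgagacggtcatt
Hspe1, chr1:55088053-55088082, plus strand: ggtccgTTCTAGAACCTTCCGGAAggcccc

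The element begins 104 bases before the start of both Hspa1a and Hspa1b, and their windows of 300 bases (250 before to 50 after the start) were identical at 296 bases (98.7%). Hspb1 holds 2 elements, beginning 117 and 97 bases before its start. Windows were found for 57 of the 73 members. GAANNTTC, which reads the same on both strands, was present in 14 of those 57 genes (24.6%), against 2442 of 27025 genes in the whole table (9.04%). By class it was present in 5 of 6 inducible, 2 of 5 mitochondrial, 2 of 4 other small heat shock, 4 of 23 J protein and 1 of 7 CCT genes. The 2 mitochondrial genes, Hspd1 and Hspe1, share 1 site, which is counted for each of them. The windows held for the other classes had no match. Members without a window were Bag4, Cct4, Dnajc2, Dnajc5, Dnajc11, Dnajc12, Dnajc18, Dnajc22, Dnajc30, Hsf1, Hsp90aa1, Hsp90ab1, Hspa8, Hspa9, Hspa13 and Hspb2. At least 3 adjoining units in alternating orientation, each 2 bases from the next, were present in 4 of the 57 members (7.02%) and in 0.662% of all genes. Hspd1 and Hspe1 are 2 of these 4 members, again through their shared site. A match describes the letters only.

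The 73 members fall into an inducible class of 7 genes long known to respond to heat (Hspa1a, Hspa1b, Hsp90aa1, Hsph1, Hspb1, Dnajb1 and Bag3) and constitutive classes of 10 other Hsp70, Hsp110 and Hsp90 genes, 8 CCT genes and 5 other small heat shock genes. The co-chaperones are 28 J proteins and 5 BAG proteins, 8 members are mitochondrial, and Hsf1 and Hsf2 are regulators. Levels are given in CPM, which is each gene's reads relative to all reads in genes, after scaling of the libraries by TMM, a method that assumes most genes do not change. Per kilobase of exon, mean CPM over the 12 libraries was highest for Hsp90ab1 (469) and Hspa8 (411), then Hspa9 (309), Hspd1 (258) and Bag1 (140.3). The ranges of Hsp90ab1 and Hspa8 over the libraries overlapped widely, and per kilobase of the longest transcript Hspa8 came first (560, against 558 for Hsp90ab1). This order pools the groups: Hspa8 had 1051 CPM per kilobase of exon in cold WT and 123 in WT at room temperature, where Hspa9 (306), Hsp90ab1 (266), Hspd1 (239) and Bag1 (130.4) were above it.

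Cdk7, the deleted gene, had 5.21 ± 0.309 CPM in cold KO pools and 16.6 ± 1.20 CPM in cold WT pools, and 5.09 ± 0.712 CPM in KO and 15.9 ± 0.720 CPM in WT pools at room temperature (SD, n = 3 each). It was lower in KO by log2 fold changes of -1.67 ± 0.12 in the cold (adjusted p = 2.02e-08) and -1.64 ± 0.12 at room temperature (adjusted p = 3.78e-08). The libraries held 27609717 to 36792555 counts in genes. Summed CPM of 15 skeletal muscle markers was 43.5 to 309.8 in cold KO, 73 to 173 in cold WT, 39.8 to 1409.5 in KO at room temperature and 173 to 1085 in WT at room temperature, with KO pool 6 and WT pool 2 at room temperature the richest. Summed CPM of 12 brown adipocyte markers, which mark the labelled tissue, was 8087 to 8965 in cold KO, 22196 to 25566 in cold WT, 7541 to 8354 in KO and 10126 to 13017 in WT at room temperature, and that of 13 macrophage markers was 305 to 419.7, 112 to 115, 259 to 339 and 77.9 to 103 in the same groups. In WT pools most of the brown adipocyte sum was Ucp1, the uncoupling protein, which had 3723 to 4283 CPM in cold KO and 14787 to 17543 in cold WT, and 3608 to 4395 in KO and 6627 to 8501 in WT at room temperature. Of the 12 markers, 8 were lower and 0 higher in KO in the cold, and 5 were lower and 1 higher (Ppargc1a) at room temperature, while Cox8b passed the test at neither temperature. Of the endothelial, smooth muscle and fibroblast markers, 8 of 11, 7 of 10 and 4 of 8 were higher in KO at room temperature, where 19.3% of all genes were. The same numbers were higher in KO in the cold, where 25.9% of all genes were. At room temperature 1 smooth muscle marker was lower in KO, and in the cold 2 smooth muscle markers and 1 endothelial marker were. In bulk tissue, fewer cells of a type and less RNA per cell cannot be told apart, and the part of these shifts in the results was not tested.

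Cold raised chaperone transcripts in both genotypes, and by less in KO for many of them. In KO brown fat 21 of 73 members rose in the cold and 6 fell (28.8% and 8.22%), while 7.29% of all genes tested rose and 7.56% fell. In WT brown fat 39 rose and 7 fell in the cold (53.4% and 9.59%), while 23% of all genes rose and 23.2% fell. The difference between the 2 cold responses, tested as an interaction, passed for 32 members, of which 28 had a lower response in KO and 4 a higher one, while 12.9% of all genes passed with a lower and 10.6% with a higher response. The test was the quasi-likelihood test of edgeR, p was adjusted by the Benjamini-Hochberg method over all 15208 genes tested, and a member is said to rise or fall where adjusted p was under 0.05.

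Between the genotypes, 17 members were higher and 15 lower in KO than in WT at room temperature (23.3% and 20.5%), close to the 19.3% and 21% of all genes. In the cold 11 members were higher and 41 lower in KO (15.1% and 56.2%), against 25.9% and 27.8% of all genes. The median log2 fold change of the members was 0.03 at room temperature and -0.31 in the cold, with 0.00 and 0.01 over all genes. As a share of all gene counts, before any scaling, the 73 members held 0.916 to 1.02% in cold KO, 1.25 to 1.47% in cold WT, 0.698 to 0.770% in KO and 0.551 to 0.657% in WT at room temperature. The shares of the 4 groups did not overlap, and the cold WT pools had the highest. In the cold the class of other Hsp70, Hsp110 and Hsp90 genes held 0.295 to 0.329% in KO and 0.620 to 0.728% in WT. The BAG share was higher in cold KO (0.0389 to 0.0408%, against 0.0334 to 0.0365% in cold WT). The shares of all other classes overlapped between cold KO and cold WT. The comparisons share libraries in pairs, so their values stand side by side and are not independent.

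These counts depend on the scaling. Scaled by library totals alone, the median gene was 0.45 higher on the log2 scale in KO than in WT in the cold and 0.22 higher at room temperature, and 0.23 lower in the cold than at room temperature in WT. Members higher and lower in KO in the cold then numbered 22 and 12, and at room temperature 26 and 4. Of all 15208 genes tested, 7881 were then higher and 1073 lower in KO in the cold, and 4739 and 1267 at room temperature. Values below written with ± and an adjusted p are log2 fold changes on the TMM scale with their standard errors, and differences between responses are the log2 cold response in KO minus that in WT.

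**Figure D1:**
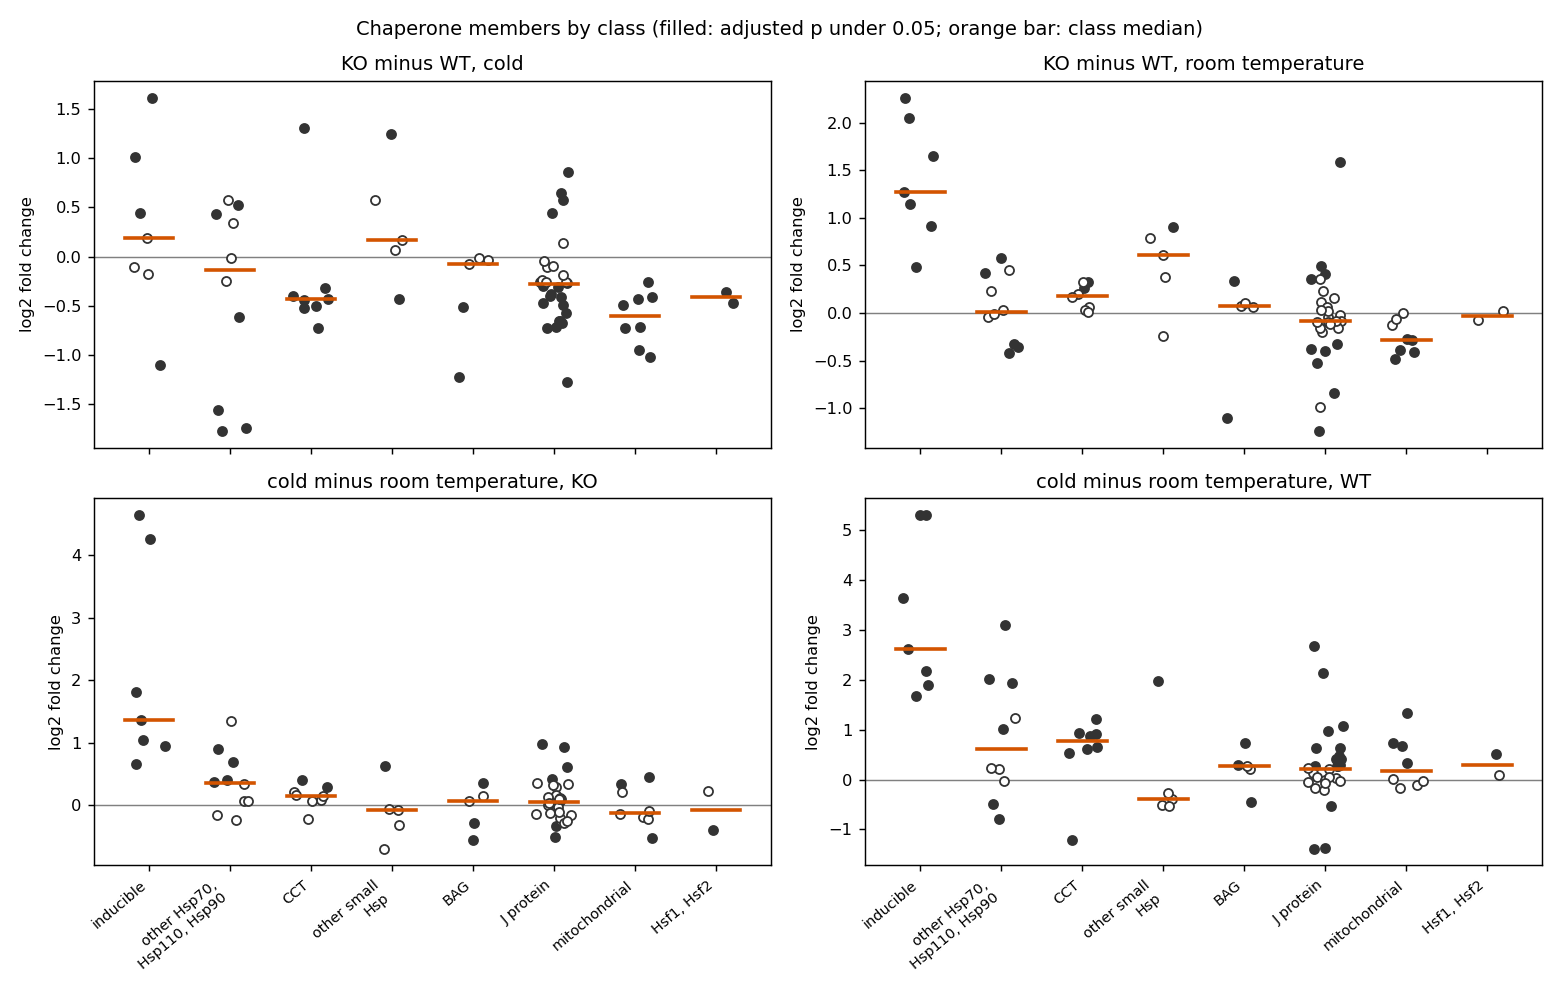
Log2 fold changes (y axis) of the 73 members by class (x axis), for each of the 4 comparisons. Each point is 1 member, filled where adjusted p was under 0.05, and the orange bars are class medians (for the inducible class 0.19, 1.27, 1.36 and 2.62, KO minus WT in the cold and at room temperature, then cold minus room temperature in KO and in WT).

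All 7 inducible members were higher in KO at room temperature, all 7 rose in the cold in KO and all 7 rose in the cold in WT, by adjusted p. In the cold 3 of them were higher and 1 lower in KO than in WT. Their median log2 fold change between KO and WT at room temperature was 1.27, and that between cold and room temperature was 1.36 in KO and 2.62 in WT. With library totals the class gave the same 7 of 7 in these 3 comparisons, but 5 higher and 1 lower between genotypes in the cold. The cold response was lower in KO for 5 of the 7, with a median difference of -1.02. At room temperature every KO pool was above every WT pool for each of the 7 genes, as it was for 23.9% of all genes. The class was set with earlier results of these data known, and Dnaja4, also known to be induced by heat, is counted with the J proteins.

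Hspa1a (ENSMUSG00000091971, chromosome 17, 34969190 to 34972156, minus strand), a stress-induced Hsp70, had 60.3, 37.5 and 46.5 CPM in cold KO pools and 22.3, 14.5 and 10.2 CPM in cold WT pools. At room temperature Hspa1a had 2.19, 1.84 and 1.70 CPM in KO pools and 0.230, 0.512 and 0.408 CPM in WT pools. It was lowest in WT pools at room temperature, where the counts were 6, 18 and 15 reads, and highest in cold KO pools, and no 2 groups overlapped. KO exceeded WT by a log2 fold change of 2.26 ± 0.47, adjusted p = 0.0043 at room temperature and of 1.62 ± 0.27, adjusted p = 0.000736 in the cold. Cold raised it by 4.65 ± 0.32, adjusted p = 2.46e-05 in KO and by 5.29 ± 0.40, adjusted p = 4.55e-06 in WT, and the difference between these responses was -0.65 ± 0.56, adjusted p = 0.453, which did not pass. Its near-identical neighbour Hspa1b had 71.8, 47.4 and 43.7 CPM in cold KO pools and 35.7, 28.0 and 17.0 CPM in cold WT pools. At room temperature Hspa1b had 3.67, 3.40 and 1.30 CPM in KO pools and 0.345, 0.967 and 0.653 CPM in WT pools. Hspa1b ran in the same order of groups, with no overlap between them, and its cold response was 4.27 ± 0.44, adjusted p = 0.000555 in KO and 5.30 ± 0.53, adjusted p = 5.86e-05 in WT.

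For Hspa1b the calls between genotypes rested on few pools. At room temperature it was higher in KO by 2.05 ± 0.59, adjusted p = 0.0241, a call that ended without room-temperature KO pool 4 or 5 or room-temperature WT pool 1 or 3 (log2 fold change 1.79 to 2.01, adjusted p = 0.0709 to 0.0772), with limma voom (1.39, adjusted p = 0.127) and with a muscle covariate (1.68, adjusted p = 0.0586). In the cold it was higher in KO by 1.01 ± 0.37, adjusted p = 0.0475, a call that ended without cold KO pool 1 or 2 or 3 or cold WT pool 2 or 3 (log2 fold change 0.76 to 1.14, adjusted p = 0.0563 to 0.158) and with DESeq2 (1.01, adjusted p = 0.0553). Only 33.7% of the 50-base stretches of Hspa1a transcripts and 37.7% of those of Hspa1b were in no other gene's transcripts on either strand, so the split of reads between the 2 genes is uncertain.

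Hsph1, an Hsp110 that resets Hsp70 by exchanging its nucleotide, had 360.3, 368 and 297 CPM in cold KO pools and 432, 396 and 333 CPM in cold WT pools. At room temperature Hsph1 had 70.6, 125 and 97.7 CPM in KO pools and 28.0, 35.5 and 29.8 CPM in WT pools. The cold pools of both genotypes overlapped, while KO pools at room temperature lay wholly above WT pools. KO was higher at room temperature by 1.65 ± 0.19, adjusted p = 3.83e-05, and in the cold the genotypes gave -0.18 ± 0.18, adjusted p = 0.423. Its cold response was 1.80 ± 0.19, adjusted p = 7.99e-05 in KO and 3.64 ± 0.20, adjusted p = 8.24e-08 in WT, a difference of -1.83 ± 0.26, adjusted p = 0.00063.

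Hsp90aa1, the inducible Hsp90, had 426, 446 and 394 CPM in cold KO pools and 988, 1049 and 679.6 CPM in cold WT pools. At room temperature Hsp90aa1 had 175, 245 and 199 CPM in KO pools and 149, 133 and 160.1 CPM in WT pools. Cold KO pools were all below cold WT pools, whereas KO pools were above WT pools at room temperature. In the cold Hsp90aa1 was 2.15-fold lower in KO (-1.10 ± 0.15, adjusted p = 3.88e-05). At room temperature it was higher in KO by 0.49 ± 0.15, adjusted p = 0.0201, a call that ended without room-temperature KO pool 5 or room-temperature WT pool 1 or 2 (log2 fold change 0.34 to 0.49, adjusted p = 0.0509 to 0.0949) and also without the 2 pools richest in muscle transcripts (0.44, adjusted p = 0.121). The cold response was 1.03 ± 0.15, adjusted p = 0.00054 in KO and 2.62 ± 0.16, adjusted p = 2.54e-08 in WT, a difference of -1.59 ± 0.21, adjusted p = 0.000261. Of the 50-base stretches of Hsp90aa1 52.5% were in no other gene.

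Dnajb1, the J protein induced along with Hsp70, had 113, 96.0 and 106 CPM in cold KO pools and 101, 65.9 and 65.6 CPM in cold WT pools. At room temperature Dnajb1 had 38.6, 47.7 and 36.7 CPM in KO pools and 14.9, 19.7 and 16.4 CPM in WT pools. Cold WT pool 1 lay among the cold KO pools, and all KO pools at room temperature were above all WT pools. Dnajb1 was higher in KO at room temperature by 1.27 ± 0.17, adjusted p = 0.000145 and rose in the cold by 1.36 ± 0.17, adjusted p = 0.00031 in KO and 2.18 ± 0.18, adjusted p = 1.38e-06 in WT. In the cold it was higher in KO by 0.44 ± 0.17, adjusted p = 0.0409, a call that ended without cold KO pool 1 or 3 or cold WT pool 2 or 3 (log2 fold change 0.34 to 0.43, adjusted p = 0.0935 to 0.129). The smaller cold response in KO (-0.83 ± 0.24, adjusted p = 0.0262) ended without cold KO pool 2 or 3 or room-temperature KO pool 5 or room-temperature WT pool 1 or 3 (log2 fold change -0.83 to -0.71, adjusted p = 0.053 to 0.0662) and with library totals (-0.60, adjusted p = 0.162).

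Hspb1, a small heat shock protein that also protects actin filaments, had 138, 139 and 131 CPM in cold KO pools and 127, 129 and 102 CPM in cold WT pools. At room temperature Hspb1 had 64.2, 75.7 and 72.8 CPM in KO pools and 30.4, 29.6 and 35.7 CPM in WT pools. The cold KO pools stood just above the cold WT pools, and the KO pools at room temperature were well above the WT pools. Between genotypes Hspb1 differed by 1.15 ± 0.10, adjusted p = 5.87e-07 at room temperature, and the value for the cold was 0.19 ± 0.10, adjusted p = 0.124. Its cold response was 0.94 ± 0.10, adjusted p = 1.69e-05 in KO and 1.90 ± 0.11, adjusted p = 1.39e-09 in WT, and the difference was -0.96 ± 0.14, adjusted p = 0.000292. Of its 50-base stretches 49.9% were in no other gene, the rest being shared mainly with the pseudogene Hsp25-ps1.

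Bag3, which links Hsp70 to autophagy of misfolded proteins, had 154, 159 and 195 CPM in cold KO pools and 199, 179 and 169 CPM in cold WT pools. At room temperature Bag3 had 91.6, 119.7 and 110.4 CPM in KO pools and 75.6, 48.2 and 47.0 CPM in WT pools. Its cold groups overlapped, and at room temperature KO pools were above WT pools, of which pool 1 was the highest. Bag3 was higher in KO at room temperature by 0.92 ± 0.17, adjusted p = 0.00141, and its cold response was 0.66 ± 0.17, adjusted p = 0.0236 in KO and 1.68 ± 0.18, adjusted p = 9.91e-06 in WT, a difference of -1.02 ± 0.24, adjusted p = 0.0105. The response in KO no longer passed without cold KO pool 2 or 3 or room-temperature KO pool 4 or 6 (log2 fold change 0.55 to 0.70, adjusted p = 0.0501 to 0.0955).

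Summed CPM of 10 immediate-early genes, a sign of tissue handling and acute stress, was 221 to 285 in cold KO, 191 to 203 in cold WT, 138 to 172 in KO and 82.6 to 174 in WT at room temperature. By this sum every cold pool was above every pool at room temperature. The largest single parts differed by genotype. Dusp1 alone had 60.8, 68.3 and 78.0 CPM in cold KO pools and 102, 109 and 116 CPM in cold WT pools. Atf3 had 84.6, 59.4 and 72.5 CPM in cold KO pools and 13.1, 12.4 and 11.4 CPM in cold WT pools. Of the 10 genes 6 were higher and 0 lower in KO in the cold, where 25.9% and 27.8% of all genes were. Of the 10 genes 3 rose and 0 fell in the cold in KO, where 7.29% and 7.56% of all genes did. In WT 4 rose and 2 fell, where 23% and 23.2% of all genes did. Egr1 had 2.47, 4.04 and 4.06 CPM in cold WT pools and 20.1, 7.99 and 17.6 CPM in WT pools at room temperature. The part of handling in the inducible genes was not tested.

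**Figure D2:**
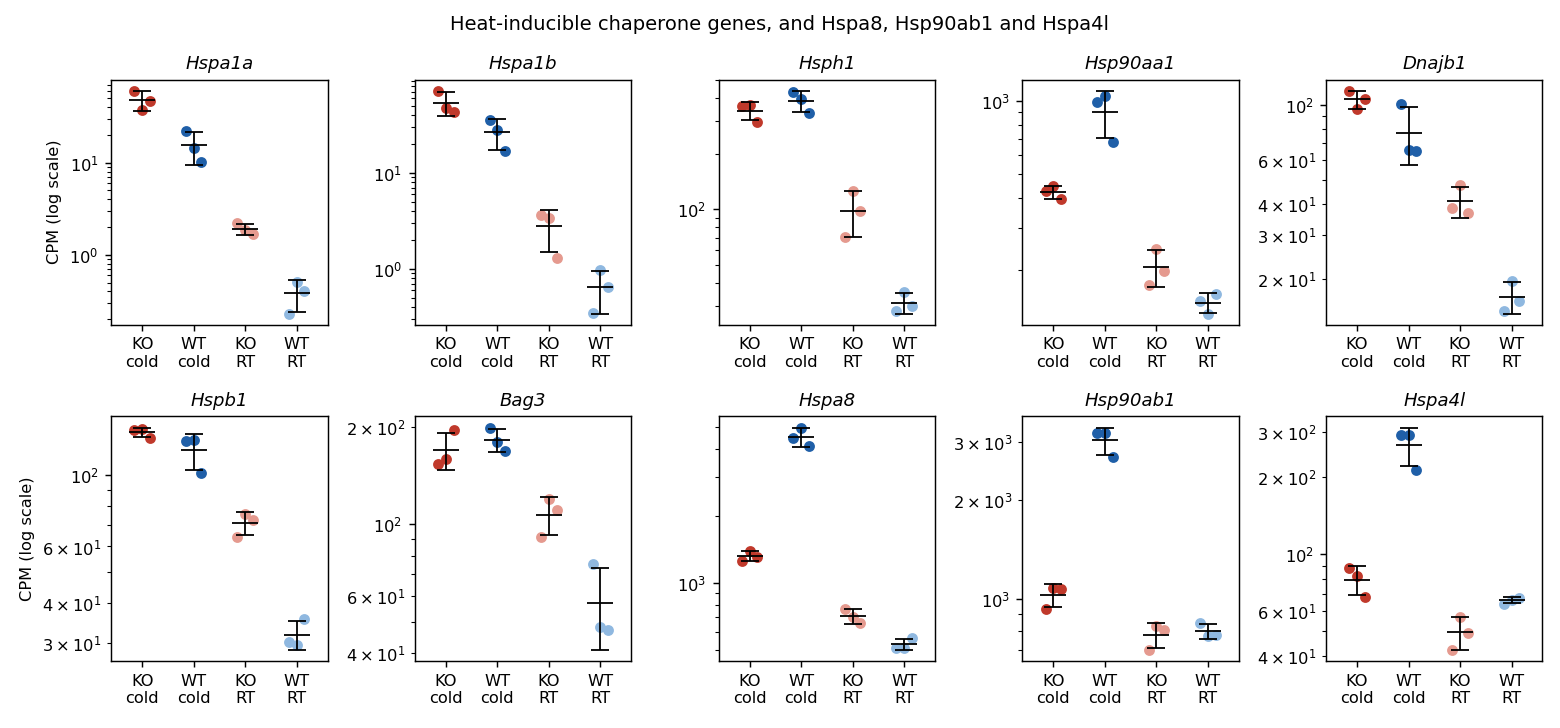
CPM on log axes of the 7 inducible members and of Hspa8, Hsp90ab1 and Hspa4l in 4 groups of 3 pools. Points are pools and bars the mean ± SD: Hspa1a is highest in cold KO pools (60.3, 37.5 and 46.5), above cold WT pools (22.3, 14.5 and 10.2), while for Hspa8 the cold KO pools (1254, 1393 and 1309.9) lie below the cold WT pools (4464, 4987 and 4109).

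The abundant constitutive Hsp70 and Hsp90 genes were far lower in cold KO pools than in cold WT pools. Summed CPM of the 10 constitutive Hsp70, Hsp110 and Hsp90 genes was 2579 to 2872 in cold KO pools, against 7402 to 8872 in cold WT pools, and 1747 to 1870.3 in KO pools, against 1596 to 1667 in WT pools at room temperature. In the cold 4 of the 10 were lower in KO and 2 higher (40% and 20%, against 27.8% and 25.9% of all genes). The cold response was lower in KO for 4 (Hspa8, Hsp90ab1, Hspa4 and Hspa4l) and higher for none, where 12.9% and 10.6% of all genes passed. The median difference was -0.03 over the 10 and 0.01 over all genes. With library totals 3 of the 10 passed with a lower response in KO and 1 with a higher one. The 2 higher in KO in the cold were Hspa12b and Hspa12a. Hspa12a had 16.4, 15.9 and 14.7 CPM in cold KO pools and 10.2, 12.0 and 10.5 CPM in cold WT pools. In WT both Hspa12a and Hspa14 fell in the cold.

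Hspa8 (ENSMUSG00000015656, chromosome 9, 40800984 to 40810087, plus strand) encodes Hsc70, the Hsp70 that cells make without stress and that also strips clathrin coats. It had 1254, 1393 and 1309.9 CPM in cold KO pools and 4464, 4987 and 4109 CPM in cold WT pools. At room temperature Hspa8 had 768, 699.9 and 659 CPM in KO pools and 511, 512 and 565 CPM in WT pools. No 2 groups overlapped, and the cold WT pools were far above all others. Cold raised it 1.86-fold in KO (0.90 ± 0.10, adjusted p = 1.88e-05) and 8.53-fold in WT (3.09 ± 0.11, adjusted p = 7.28e-12), and the responses differed by -2.20 ± 0.14, adjusted p = 2.06e-07. In the cold it was 3.43-fold lower in KO (-1.78 ± 0.10, adjusted p = 2.71e-09), although at room temperature it was higher in KO (0.42 ± 0.10, adjusted p = 0.00283). These calls held under every alternative tried. Of its 50-base stretches 60.6% were in no other gene, and it overlaps 3 snoRNA genes on its strand.

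Hsp90ab1, the constitutive Hsp90 of the cytosol, had 929, 1078 and 1074 CPM in cold KO pools and 3201, 3187 and 2697 CPM in cold WT pools. At room temperature Hsp90ab1 had 697, 826 and 802 CPM in KO pools and 844, 773 and 774 CPM in WT pools. Cold KO pools lay wholly below cold WT pools, and the groups at room temperature overlapped. KO was 2.95-fold lower in the cold (-1.56 ± 0.10, adjusted p = 1.3e-08), and at room temperature the genotypes gave -0.04 ± 0.10, adjusted p = 0.779, a value whose sign changed with library totals. Its cold response was 0.41 ± 0.10, adjusted p = 0.0126 in KO and 1.93 ± 0.10, adjusted p = 1.32e-09 in WT, a difference of -1.52 ± 0.14, adjusted p = 5.61e-06, and the response in KO ended without cold KO pool 2 or room-temperature KO pool 4 (log2 fold change 0.34 to 0.37, adjusted p = 0.0501 to 0.0633).

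Hspa4l, an Hsp110 close to Hsph1, had 88.1, 81.8 and 68.1 CPM in cold KO pools and 292, 292 and 213 CPM in cold WT pools. At room temperature Hspa4l had 42.2, 56.8 and 49.1 CPM in KO pools and 64.0, 66.3 and 67.4 CPM in WT pools. The cold WT pools were above all others by far, and KO pools were below WT pools at both temperatures. In the cold Hspa4l was lower in KO, at -1.74 ± 0.13, adjusted p = 1.12e-07, and its cold response was 0.69 ± 0.13, adjusted p = 0.00286 in KO and 2.01 ± 0.14, adjusted p = 2.54e-08 in WT, a difference of -1.33 ± 0.19, adjusted p = 0.000253. At room temperature it was lower in KO (-0.42 ± 0.13, adjusted p = 0.02), a call that ended without room-temperature KO pool 4 or 6 or room-temperature WT pool 2 or 3 (log2 fold change -0.41 to -0.32, adjusted p = 0.0517 to 0.082) and with library totals (-0.20, adjusted p = 0.322). Hspa4, another Hsp110, was lower in KO in the cold (-0.61 ± 0.09, adjusted p = 2.86e-05), but not past the test with library totals (-0.17, adjusted p = 0.227).

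The balance within some pairs of related genes also differed. The ratio of Hsp90aa1 to Hsp90ab1 counts was 0.458, 0.414 and 0.367 in cold KO pools, 0.309, 0.329 and 0.252 in cold WT pools, 0.251, 0.297 and 0.248 in KO pools and 0.177, 0.172 and 0.207 in WT pools at room temperature. It was higher in every KO pool than in every WT pool at the same temperature. The ratio of Hspa1a to Hspa8 counts was 0.0481, 0.0269 and 0.0355 in cold KO pools and 0.00500, 0.00290 and 0.00249 in cold WT pools, with no overlap. The ratio of Hspe1 to Hspd1 counts overlapped between genotypes. It was 0.149, 0.169 and 0.215 in cold KO pools and 0.204, 0.221 and 0.191 in cold WT pools. At room temperature it was 0.161, 0.156 and 0.173 in KO pools and 0.162, 0.127 and 0.104 in WT pools. These ratios do not depend on how libraries were scaled, and they compare counts of genes of different length, so only their differences between pools are read. Several of these genes, Hsp90aa1 and Hspd1 among them, share much of their sequence with other genes, which limits the reading of the ratios.

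Hspa12b, an Hsp70 relative known from endothelium, was higher in KO at room temperature (0.58 ± 0.11, adjusted p = 0.000666) and again in the cold (0.43 ± 0.11, adjusted p = 0.00407). It had 47.0, 58.1 and 56.9 CPM in cold KO pools, against 41.7, 36.3 and 42.3 CPM in cold WT pools. At room temperature the levels were 46.1, 56.2 and 52.2 CPM in KO pools, against 36.7, 29.1 and 37.5 CPM in WT pools. Endothelial markers summed to 1040.0 to 1054 CPM in KO pools, against 699 to 852 CPM in WT pools at room temperature. In the cold they summed to 1049 to 1224 CPM in KO pools, against 929 to 969 CPM in WT pools. Their part in Hspa12b was not tested.

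The CCT chaperonin is a ring that folds actin and tubulin. In KO 2 of its 8 measured subunit genes rose in the cold and none fell (median 0.15), while in WT 7 rose and 1 fell (median 0.76), and 7 of 8 had a lower cold response in KO (median difference -0.53). Of all genes 7.29% rose in the cold in KO and 23% in WT, and 12.9% had a lower cold response in KO. Between genotypes in the cold 7 subunit genes were lower in KO and 1 higher, where 27.8% and 25.9% of all genes were. With library totals 7 still rose and 1 fell in the cold in WT, but 1 was lower and 1 higher in KO in the cold, and 3 had a lower cold response in KO. Cct6a carries the biotype processed transcript in the annotation, though it is counted here as a subunit gene.

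Cct3 had 106, 107 and 101 CPM in cold KO pools and 179, 184 and 156 CPM in cold WT pools. At room temperature Cct3 had 82.2, 91.4 and 84.6 CPM in KO pools and 72.0, 78.5 and 74.7 CPM in WT pools. Cold WT pools were highest, cold KO pools next, and the groups at room temperature lay lower still. In the cold Cct3 was lower in KO, at -0.73 ± 0.08, adjusted p = 2.54e-06, and its cold response was 0.28 ± 0.08, adjusted p = 0.0315 in KO and 1.21 ± 0.08, adjusted p = 1.63e-08 in WT, a difference of -0.93 ± 0.12, adjusted p = 7.73e-05. The response of Cct3 in KO ended without cold KO pool 1 or 2 or room-temperature KO pool 4 or 6 (log2 fold change 0.25 to 0.27, adjusted p = 0.0913 to 0.114) and with library totals (0.31, adjusted p = 0.0988). With library totals Cct3 was the 1 subunit gene still lower in KO in the cold, and for Cct4, Cct5 and Cct6a the value was then above 0. The subunits Cct6a (-0.75 ± 0.12, adjusted p = 0.000374) and Cct7 (-0.79 ± 0.13, adjusted p = 0.000501) also had lower cold responses in KO.

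Cct6b, a relative of Cct6a known from the testis, was called in the opposite direction to the rest. It had 0.759, 0.569 and 0.925 CPM in cold KO pools, against 0.337, 0.0908 and 0.447 CPM in cold WT pools, and was higher in KO (1.30 ± 0.42, adjusted p = 0.0153) at counts of 2 to 30 reads in the cold pools. That call ended without cold KO pool 3 or cold WT pool 2 (log2 fold change 0.93 to 1.13, adjusted p = 0.0541 to 0.0685). Its fall in the cold in WT (-1.20 ± 0.43, adjusted p = 0.0287) ended without cold WT pool 1 or 2 or room-temperature WT pool 1 or 2 (log2 fold change -1.30 to -0.83, adjusted p = 0.0547 to 0.121).

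Hspb8, which works with Bag3 and Hsp70, was the small heat shock gene of the remaining 5 with the clearest changes. It had 136, 143 and 121 CPM in cold KO pools and 189, 172 and 176 CPM in cold WT pools. At room temperature Hspb8 had 82.8, 88.7 and 86.8 CPM in KO pools and 45.5, 42.2 and 49.8 CPM in WT pools. No 2 groups overlapped, and cold WT pools were highest. Hspb8 was higher in KO at room temperature (0.91 ± 0.09, adjusted p = 1.12e-06), rose in the cold by 0.63 ± 0.09, adjusted p = 0.000158 in KO and 1.97 ± 0.09, adjusted p = 1.9e-10 in WT, and the responses differed by -1.34 ± 0.12, adjusted p = 4.77e-06. In the cold it was lower in KO (-0.43 ± 0.09, adjusted p = 0.000553), but not with library totals (0.01, adjusted p = 0.956).

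Hspb6 and Hspb7, best known from heart and skeletal muscle, passed in no comparison. Hspb7 had 0.809, 2.55 and 2.65 CPM in cold KO pools and 1.99, 0.862 and 1.12 CPM in cold WT pools. At room temperature Hspb7 had 1.09, 0.826 and 5.64 CPM in KO pools and 1.80, 3.50 and 0.463 CPM in WT pools. Its 2 highest pools, KO pool 6 and WT pool 2 at room temperature, were also the 2 richest in skeletal muscle markers. Hspb6 had 24.5, 15.2 and 35.7 CPM in KO pools, against 19.8, 19.3 and 10.4 CPM in WT pools at room temperature, again highest in KO pool 6. Hspb2, at 4 to 23 reads per library, was higher in KO in the cold (1.24 ± 0.39, adjusted p = 0.0122), but it overlaps Cryab on the opposite strand, and the call ended without cold WT pool 1 (log2 fold change 0.98, adjusted p = 0.0666).

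In the cold all 8 mitochondrial chaperones were lower in KO, with a median of -0.60, where 27.8% of all tested genes were lower. At room temperature 5 of the 8 were lower and 3 did not pass the test, with a median of -0.28, where 21% of all genes were lower. Summed CPM was 2316 to 2441 in cold KO pools, against 3284 to 3695 in cold WT pools, and 1969.5 to 2223 in KO pools, against 2575 to 2688 in WT pools at room temperature. In the cold 2 of the 8 rose and 1 fell in KO, and 4 rose and none fell in WT. With library totals 1 was lower in KO at room temperature and 3 in the cold, none was higher, and in WT 3 rose and 2 fell in the cold.

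Hspe1, the lid of the mitochondrial chaperonin, had 97.6, 108 and 114 CPM in cold KO pools and 212, 232 and 173 CPM in cold WT pools. At room temperature Hspe1 had 77.7, 79.8 and 77.9 CPM in KO pools and 96.0, 79.6 and 69.8 CPM in WT pools. The cold WT pools stood above all others and the groups at room temperature overlapped. In the cold Hspe1 was lower in KO (-0.95 ± 0.12, adjusted p = 6.13e-06), and its cold response was 0.44 ± 0.12, adjusted p = 0.017 in KO and 1.33 ± 0.12, adjusted p = 2.18e-07 in WT, a difference of -0.89 ± 0.17, adjusted p = 0.0013. At room temperature the genotypes gave -0.06 ± 0.12, adjusted p = 0.718, a value above 0 with library totals, and the response in KO ended without cold KO pool 2 or 3 or room-temperature KO pool 4 or 6 (log2 fold change 0.39 to 0.44, adjusted p = 0.0572 to 0.061).

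Hspd1, the Hsp60 ring itself, shares the promoter region printed above with Hspe1 and overlaps it on the opposite strand. Of the 50-base stretches of Hspd1 57.9% were in no other gene. Hspd1 had 655, 639.9 and 532 CPM in cold KO pools and 1041, 1053 and 907 CPM in cold WT pools. At room temperature Hspd1 had 484, 510.4 and 449.7 CPM in KO pools and 591, 628 and 674 CPM in WT pools. KO pools were below WT pools at both temperatures. Hspd1 was lower in KO at room temperature (-0.39 ± 0.10, adjusted p = 0.0052) and likewise in the cold (-0.72 ± 0.10, adjusted p = 2e-05), and cold raised it by 0.34 ± 0.10, adjusted p = 0.0298 in KO and 0.66 ± 0.10, adjusted p = 4.32e-05 in WT. The difference between the responses did not pass (-0.32 ± 0.14, adjusted p = 0.106). With library totals neither genotype difference passed (-0.18, adjusted p = 0.302 at room temperature and -0.27, adjusted p = 0.0891 in the cold), and the response in KO ended with them too (0.37, adjusted p = 0.0889) and without cold KO pool 1 or 2 or room-temperature KO pool 4 or 6 (log2 fold change 0.28 to 0.34, adjusted p = 0.0593 to 0.131).

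Hspa9, the mitochondrial Hsp70, had 1279, 1219 and 1260.2 CPM in cold KO pools and 1675, 1746 and 1576 CPM in cold WT pools. At room temperature Hspa9 had 1144, 1099 and 1003 CPM in KO pools and 1281, 1321 and 1355 CPM in WT pools. The KO pools lay under all WT pools at either temperature. KO was lower at room temperature (-0.29 ± 0.09, adjusted p = 0.0135), a call that ended without room-temperature KO pool 6 (log2 fold change -0.23, adjusted p = 0.0714) and with library totals (-0.07, adjusted p = 0.647). Hspa9 was also lower in KO in the cold (-0.41 ± 0.09, adjusted p = 0.000729), but with library totals that value was 0.03, adjusted p = 0.837. In KO its cold response was 0.21 ± 0.09, adjusted p = 0.107, and in WT cold raised it (0.34 ± 0.09, adjusted p = 0.00378, with library totals 0.14, adjusted p = 0.337).

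Dnajc11, a J protein of the outer membrane tied to cristae structure, had 88.5, 96.6 and 96.6 CPM in cold KO pools and 191, 197 and 184 CPM in cold WT pools. At room temperature Dnajc11 had 109, 102 and 101 CPM in KO pools and 119, 106 and 117 CPM in WT pools. The cold WT pools stood above all others, and the cold KO pools lay below all others. KO was lower in the cold (-1.02 ± 0.08, adjusted p = 6.2e-08). The cold response of Dnajc11 was -0.15 ± 0.08, adjusted p = 0.221 in KO and 0.74 ± 0.08, adjusted p = 1.47e-06 in WT, a difference of -0.89 ± 0.11, adjusted p = 7.43e-05. Dnajc15, a J protein of the import motor, had 106, 100.01 and 108 CPM in cold KO pools and 165, 180.5 and 174 CPM in cold WT pools. At room temperature Dnajc15 had 135, 114 and 119.8 CPM in KO pools and 187, 170.5 and 160.0 CPM in WT pools. The KO pools were below the WT pools at both temperatures, at -0.49 ± 0.09, adjusted p = 0.000355 at room temperature and -0.73 ± 0.09, adjusted p = 4.49e-06 in the cold.

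Dnaja3, which works with Hspa9, was lower in KO, at -0.41 ± 0.10, adjusted p = 0.00295 at room temperature and -0.43 ± 0.10, adjusted p = 0.00129 in the cold, but neither passed with library totals (-0.20, adjusted p = 0.217 and 0.01, adjusted p = 0.946). Dnajc19, another J protein of the import machinery, was lower in KO, at -0.27 ± 0.08, adjusted p = 0.0148 at room temperature, a call that ended without room-temperature WT pool 1 (log2 fold change -0.22, adjusted p = 0.0619), and -0.26 ± 0.08, adjusted p = 0.0152 in the cold, which ended without cold KO pool 1 or 2 or cold WT pool 3 (log2 fold change -0.24 to -0.21, adjusted p = 0.0528 to 0.0819). With library totals Dnajc19 gave -0.05, adjusted p = 0.681 at room temperature and 0.18, adjusted p = 0.11 in the cold. The summed brown adipocyte markers were also lower in KO, with 8 of 12 markers lower in the cold and 5 at room temperature, and their part in the mitochondrial genes was not tested.

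**Figure D3:**
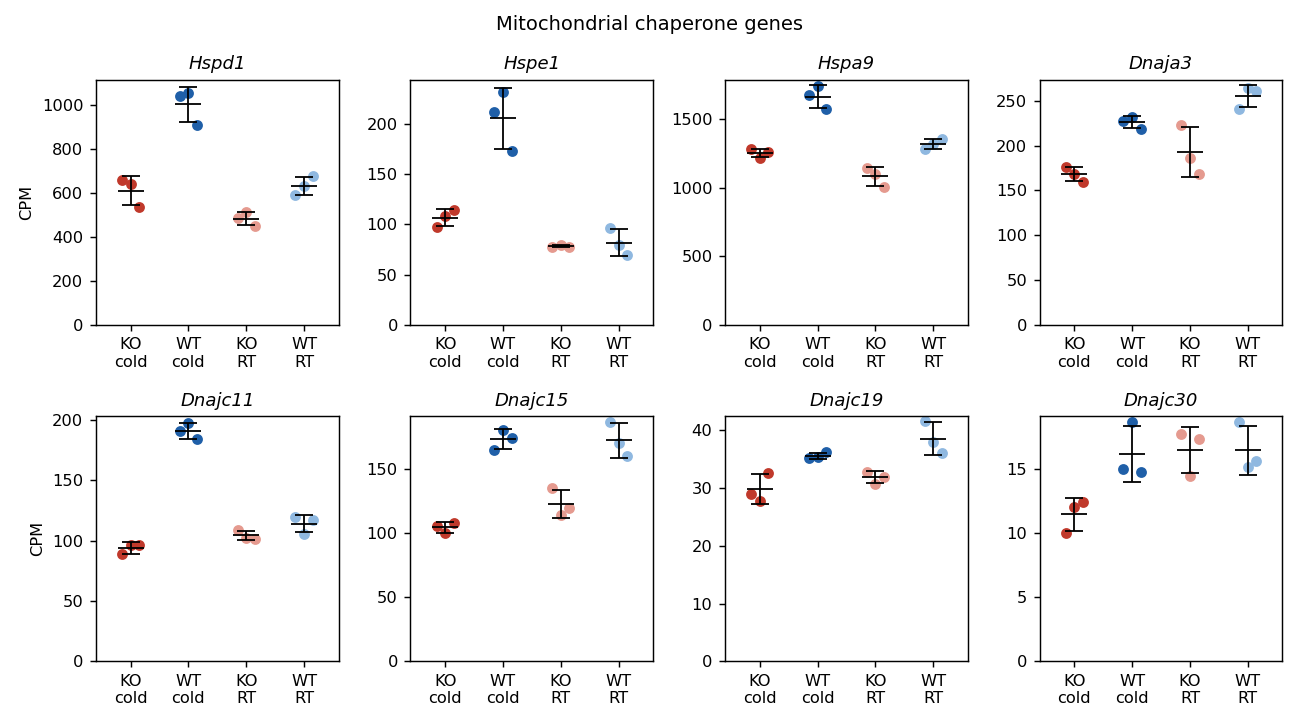
CPM of the 8 mitochondrial members in 4 groups of 3 pools, with points for pools and bars for the mean ± SD. For Hspe1, Hspd1 and Dnajc11 the cold WT pools (Hspe1 212, 232 and 173) stand above the cold KO pools (Hspe1 97.6, 108 and 114), and for Dnajc15 the KO pools lie below the WT pools at both temperatures.

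Among the 28 J proteins, 4 rose and 2 fell in the cold in KO (14.3% and 7.14%, against 7.29% and 7.56% of all genes). In WT 13 rose and 3 fell in the cold (46.4% and 10.7%, against 23% and 23.2% of all genes). At room temperature 4 were higher and 6 lower in KO, and in the cold 4 were higher and 16 lower (medians -0.08 and -0.28), but with library totals the counts in the cold were 7 higher and 3 lower. At room temperature 14.3% of the J proteins were higher and 21.4% lower, against 19.3% and 21% of all tested genes, so these shares lay near or below the background. In the cold 14.3% were higher and 57.1% lower, against 25.9% and 27.8% of all genes. The cold response was lower in KO for 6 and higher for 4 (21.4% and 14.3%), against 12.9% and 10.6% of all genes.

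Dnaja4, a J protein of the cytosol known to be induced by heat, had 90.8, 89.0 and 70.7 CPM in cold KO pools and 140.3, 127 and 84.4 CPM in cold WT pools. At room temperature Dnaja4 had 44.0, 62.7 and 58.2 CPM in KO pools and 18.5, 18.4 and 18.1 CPM in WT pools. It was about as low in all 3 WT pools at room temperature, and every other pool was higher. KO was higher at room temperature by 1.58 ± 0.19, adjusted p = 6.43e-05, cold raised it by 0.60 ± 0.18, adjusted p = 0.0446 in KO and 2.68 ± 0.19, adjusted p = 8.77e-07 in WT, and the responses differed by -2.07 ± 0.26, adjusted p = 0.000358. The response in KO ended without cold KO pool 1 or 2 or room-temperature KO pool 4 or 6 (log2 fold change 0.47 to 0.65, adjusted p = 0.09 to 0.155) and with library totals (0.63, adjusted p = 0.0566). Its exons overlap Wdr61 on the opposite strand, and 57.3% of its 50-base stretches were in no other gene.

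Dnaja1, a J protein partner of Hspa8, had 134, 118 and 84.4 CPM in cold KO pools and 190.2, 177 and 164 CPM in cold WT pools. At room temperature Dnaja1 had 52.4, 66.5 and 52.8 CPM in KO pools and 32.8, 47.5 and 41.3 CPM in WT pools. Cold pools were all above pools at room temperature, and cold KO pools were below cold WT pools. Cold raised it by 0.97 ± 0.17, adjusted p = 0.0031 in KO and 2.13 ± 0.18, adjusted p = 1.68e-06 in WT, a difference of -1.15 ± 0.24, adjusted p = 0.00547 that did not pass with library totals (-0.91, adjusted p = 0.0612). Dnajb2, which carries ubiquitin-binding motifs, had 47.2, 52.7 and 48.3 CPM in cold KO pools and 80.1, 78.2 and 75.0 CPM in cold WT pools. At room temperature Dnajb2 had 46.0, 50.8 and 50.8 CPM in KO pools and 42.0, 35.8 and 33.2 CPM in WT pools. Its cold WT pools stood above all others. The cold response of Dnajb2 was 0.01 ± 0.09, adjusted p = 0.976 in KO and 1.07 ± 0.09, adjusted p = 1.09e-07 in WT, a difference of -1.07 ± 0.13, adjusted p = 4.17e-05.

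Dnajb4, a close relative of Dnajb1, had 107, 105 and 93.4 CPM in cold KO pools and 71.7, 58.9 and 64.0 CPM in cold WT pools. At room temperature Dnajb4 had 50.5, 56.7 and 53.6 CPM in KO pools and 44.1, 44.4 and 36.8 CPM in WT pools. In the cold Dnajb4 was higher in KO (0.65 ± 0.10, adjusted p = 3.38e-05), against the direction of most J proteins, with no overlap. Dnajb4 also rose in the cold in KO (0.92 ± 0.10, adjusted p = 1.13e-05) and in WT (0.64 ± 0.10, adjusted p = 4.63e-05), and the difference of these responses was 0.29 ± 0.14, adjusted p = 0.139.

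Dnajc28 fell in the cold in both genotypes. It had 14.4, 13.2 and 11.7 CPM in cold KO pools and 14.6, 17.5 and 19.0 CPM in cold WT pools. At room temperature Dnajc28 had 21.9, 16.2 and 18.2 CPM in KO pools and 41.8, 47.6 and 44.1 CPM in WT pools. WT pools at room temperature were far above all others. Dnajc28 was lower in KO at room temperature (-1.24 ± 0.12, adjusted p = 1.02e-06) and fell in the cold, at -0.52 ± 0.12, adjusted p = 0.00834 in KO and -1.39 ± 0.12, adjusted p = 1.66e-07 in WT, a difference of 0.87 ± 0.17, adjusted p = 0.00176. Dnajc12, a partner of the aromatic amino acid hydroxylases, had 2.71, 1.87 and 2.03 CPM in cold KO pools and 0.900, 1.45 and 1.30 CPM in cold WT pools. At room temperature Dnajc12 had 1.64, 1.53 and 2.09 CPM in KO pools and 3.11, 3.56 and 2.72 CPM in WT pools. It was highest in WT pools at room temperature. KO was lower at room temperature (-0.84 ± 0.22, adjusted p = 0.00567) and higher in the cold (0.86 ± 0.23, adjusted p = 0.00499), and the responses differed by 1.70 ± 0.32, adjusted p = 0.00132.

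Lower in KO in the cold were also Dnajb12, of the endoplasmic reticulum membrane (-0.68 ± 0.09, adjusted p = 1.49e-05), Dnajc21, which works in ribosome assembly (-0.72 ± 0.10, adjusted p = 2.35e-05), Dnajc27 (-0.71 ± 0.12, adjusted p = 8.74e-05) and Dnajc7, which binds both Hsp70 and Hsp90 (-0.47 ± 0.08, adjusted p = 7.92e-05). Dnajc7 did not pass with library totals (-0.04, adjusted p = 0.764). It was lower in KO at room temperature too (-0.38 ± 0.08, adjusted p = 0.000868), and so were Dnajc24, which helps to make diphthamide on elongation factor 2 (-0.52 ± 0.13, adjusted p = 0.00454), and Dnajc21 (-0.40 ± 0.10, adjusted p = 0.00518). With library totals these 3 no longer passed at room temperature, at -0.17, adjusted p = 0.175 for Dnajc7, -0.31, adjusted p = 0.13 for Dnajc24 and -0.18, adjusted p = 0.175 for Dnajc21.

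**Figure D4:**
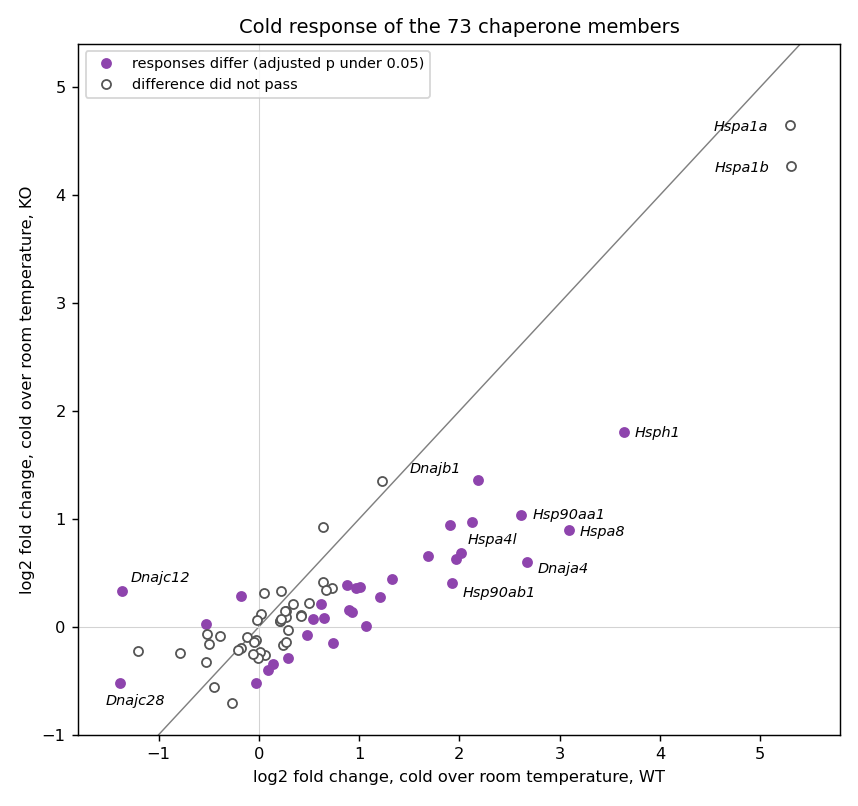
Log2 fold change of cold over room temperature in KO (y axis) against that in WT (x axis) for the 73 members, with the line of equal responses. Filled points are the 32 members whose responses differed, of which 28 lie below the line (Hspa8 at 0.90 in KO and 3.09 in WT) and 4 above it.

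Of the 5 BAG proteins, which release nucleotide from Hsp70, Bag2 differed most between genotypes. It had 5.41, 5.75 and 4.38 CPM in cold KO pools and 10.2, 12.6 and 13.6 CPM in cold WT pools. At room temperature Bag2 had 5.28, 4.10 and 4.63 CPM in KO pools and 14, 8.02 and 8.36 CPM in WT pools. The KO pools lay below all WT pools at either temperature, with a log2 fold change of -1.10 ± 0.20, adjusted p = 0.000491 at room temperature and -1.23 ± 0.20, adjusted p = 0.000107 in the cold, and cold changed it in neither genotype past the test. Bag2 is known to restrain the ubiquitin ligase CHIP. Bag6, which escorts membrane proteins, had 92.7, 102 and 117 CPM in cold KO pools, against 148, 152 and 145 CPM in cold WT pools and was lower in KO (-0.51 ± 0.09, adjusted p = 0.000189), but with library totals the value was -0.08, adjusted p = 0.482. Bag5 rose in the cold in WT (0.72 ± 0.09, adjusted p = 1.11e-05) and was higher in KO at room temperature (0.33 ± 0.09, adjusted p = 0.0103), a call that ended without room-temperature KO pool 5 (log2 fold change 0.23, adjusted p = 0.0633). Bag4 fell in the cold, at -0.56 ± 0.12, adjusted p = 0.00523 in KO and -0.44 ± 0.12, adjusted p = 0.00643 in WT.

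The transcription factor Hsf1, which drives the heat shock response, had 13.2, 14.8 and 17.2 CPM in cold KO pools and 19.6, 22.6 and 20.2 CPM in cold WT pools. At room temperature Hsf1 had 21.4, 16.7 and 21.4 CPM in KO pools and 19.6, 18.9 and 20.1 CPM in WT pools. At room temperature its groups overlapped, at 0.02 ± 0.11, adjusted p = 0.902. In the cold the KO pools were below all WT pools (-0.47 ± 0.11, adjusted p = 0.00247), though not past the test with library totals (-0.03, adjusted p = 0.826). Its fall in the cold in KO (-0.40 ± 0.11, adjusted p = 0.0254) ended with library totals (-0.37, adjusted p = 0.0532) and without cold KO pool 1 or 2 or room-temperature KO pool 4 or 6 (log2 fold change -0.38 to -0.31, adjusted p = 0.0875 to 0.131), and the difference between the responses (-0.49 ± 0.16, adjusted p = 0.0346) ended with library totals (-0.27, adjusted p = 0.274) and without cold KO pool 1 or 2 or room-temperature KO pool 4 or 6 or cold WT pool 2 or 3 or room-temperature WT pool 2 or 3 (log2 fold change -0.50 to -0.40, adjusted p = 0.0533 to 0.11). In WT the cold response was 0.09 ± 0.11, adjusted p = 0.54. Hsf2, a related factor, had 14.7, 12.7 and 10.9 CPM in cold KO pools, against 20.4, 14.1 and 14.6 CPM in cold WT pools. These groups overlapped. Hsf2 was lower in KO in the cold (-0.36 ± 0.13, adjusted p = 0.0329), a call that ended with library totals (0.08, adjusted p = 0.687) and without cold KO pool 2 or 3 or cold WT pool 1 (log2 fold change -0.35 to -0.17, adjusted p = 0.0769 to 0.271). It rose in the cold in WT (0.50 ± 0.13, adjusted p = 0.00552), which ended with library totals (0.31, adjusted p = 0.137) and without cold WT pool 1 (log2 fold change 0.31, adjusted p = 0.0544).

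Partners of Hsp70 and Hsp90 outside the chaperone set were counted in the same way. Of 16 such genes, 5 rose and none fell in the cold in KO (median 0.21), and 14 rose and none fell in WT (median 0.58). In the cold 11 were lower and 2 higher in KO, and 11 had a lower cold response in KO and 1 a higher one, but with library totals these counts were 6 and 3, and 5 and 2. Of all genes on the TMM scale, 7.29% rose in the cold in KO and 23% in WT. In the cold 27.8% of all genes were lower in KO, and 12.9% had a lower cold response in KO. Ahsa1, which speeds the ATPase of Hsp90, had 96.5, 108 and 107 CPM in cold KO pools and 213, 227 and 183 CPM in cold WT pools. At room temperature Ahsa1 had 74.2, 86.7 and 79.2 CPM in KO pools and 62.0, 54.4 and 61.7 CPM in WT pools. The cold WT pools stood far above the rest, and the responses differed by -1.43 ± 0.14, adjusted p = 5.64e-06. Stip1, which bridges Hsp70 and Hsp90, had a difference of -1.47 ± 0.14, adjusted p = 4.77e-06. The Hsp90 partner Chordc1 (-1.09 ± 0.16, adjusted p = 0.000254) and the Hsp70 nucleotide exchange factor Hspbp1 (-0.83 ± 0.15, adjusted p = 0.000906) had lower responses in KO too. Ubb, a ubiquitin gene, was higher in KO by 0.61 ± 0.12, adjusted p = 0.000685 at room temperature and 1.12 ± 0.12, adjusted p = 1.52e-06 in the cold.

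Of 13 tested genes of mitochondrial protein folding and quality control outside the set, 4 were lower and 2 higher in KO at room temperature. These are 30.8% and 15.4%, against 21% and 19.3% of all genes. In the cold 9 were lower and 2 higher (69.2% and 15.4%, against 27.8% and 25.9%). With library totals 1 was lower and 3 higher at room temperature, and none was lower and 4 higher in the cold. Of all 15208 genes, 1267 were then lower and 4739 higher at room temperature, and 1073 and 7881 in the cold. Clpx, an unfoldase of the matrix, was lower in KO, at -0.59 ± 0.10, adjusted p = 0.000142 at room temperature and -0.54 ± 0.10, adjusted p = 0.00018 in the cold, the second not past the test with library totals (-0.10, adjusted p = 0.491), while Htra2, a protease of the intermembrane space, was higher (0.58 ± 0.09, adjusted p = 0.000149 and 1.05 ± 0.10, adjusted p = 2.82e-07). Of the 6 prefoldin genes, which pass nascent proteins to CCT, none rose in the cold in KO and 1 in WT, where 7.29% and 23% of all genes did. Of the 6 endoplasmic reticulum chaperones left out by the rule, none was called between genotypes at room temperature and 1 was higher in KO in the cold, but with library totals 3 were higher at room temperature and 4 in the cold. Hspa5, the Hsp70 of the endoplasmic reticulum, rose in the cold by 0.40 ± 0.09, adjusted p = 0.00783 in KO and 0.58 ± 0.09, adjusted p = 6.5e-05 in WT, and the difference was -0.19 ± 0.13, adjusted p = 0.321.

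Reading of several members is limited by shared or overlapping sequence. The exons of 28 members overlap another annotated gene, 8 on the same strand and 26 on the opposite one, and 13 members have under 80% of their 50-base stretches to themselves. The lowest levels, in Hspa1l, Dnajb13, Hspb2 and Cct6b, rest on few reads, and Dnajb13 overlaps Ucp2 on the opposite strand.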

How the data were processed

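The authors deposited raw read counts by Ensembl gene ID, with a file for each pool. Per the submitters' processing notes, reads were aligned with STAR and counted with HTSeq on GRCm38; versions and the library kit are not given in the sources used here. The deposited file names refer to a reverse strand setting, which is stated nowhere else, so genes that overlap another gene are reported as uncertain. The 5 summary lines of each file entered neither library sizes nor tests; reads with several alignments were 26.6 to 30.2% of a file, and other lines up to 2.26% each. Symbols, GRCm38 coordinates and exon lengths came from a GENCODE annotation of that build, which held 53274 of 53379 IDs.

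From the counts, edgeR 4.0.16 in R 4.3.3 was run with filterByExpr (15208 genes kept, 38171 left out), TMM factors of 0.798 to 1.18 and 1 mean per group over all 12 libraries (common biological coefficient of variation 13.6%). All adjusted p are from its quasi-likelihood test, adjusted by the Benjamini-Hochberg method over all genes tested at a threshold of 0.05, or, where an alternative is named, from that alternative. Values after ± are standard errors of log2 fold changes unless called SD. The scripts were tested on simulated counts. Alternatives were DESeq2 1.42.0, limma 3.58.1 voom, other scalings and filters, a muscle covariate, a replicate block and leaving out pools.

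The members, classes and lists were chosen with earlier results of these data known. Named genes are Cdk7; Hspa1a, Hspa1b, Hspa8, Hsp90aa1, Hsp90ab1, Hspa9, Hspd1, Hspe1, Hsf1 and Hsf2; per comparison and class up to 6 members with the smallest p past the test; up to 12 for the interaction; up to 4 against their class; and up to 4 per outside list. Bag1, Cct6b, Dnajb13, Dnajb6, Dnajc16, Hspa1l, Hspb6 and Hspb7 lie outside that rule and were named after their values were seen. Promoters were matched by symbol to RefSeq windows of GRCm38.p6.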

Additional observations from a re-analysis of the deposited data

Results flagged for a closer look

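The change of 32 members in the cold differed between the genotypes by a test of the difference itself (edgeR, adjusted p under 0.05). Values are the log2 cold response in KO minus that in WT. In the inducible class the response was lower in KO for Hsph1 (-1.83), Hsp90aa1 (-1.59), Bag3 (-1.02), Hspb1 (-0.96) and Dnajb1 (-0.83). Among other Hsp70, Hsp110, Hsp90 and small heat shock genes it was lower for Hspa8 (-2.20), Hsp90ab1 (-1.52), Hspb8 (-1.34), Hspa4l (-1.33) and Hspa4 (-0.64). The CCT genes with a lower response were Cct3 (-0.93), Cct7 (-0.79), Cct6a (-0.75), Cct2 (-0.57), Cct8 (-0.49), Cct4 (-0.47) and Cct5 (-0.41). Mitochondrial genes with a lower response were Dnajc11 (-0.89), Hspe1 (-0.89) and Dnajc30 (-0.50). Of the co-chaperones and regulators the response was lower for Dnaja4 (-2.07), Dnaja1 (-1.15), Dnajb2 (-1.07), Dnajc27 (-0.61), Bag6 (-0.58), Dnajc16 (-0.56), Hsf1 (-0.49) and Dnajb12 (-0.48). It was higher in KO for Dnajb6 (0.47), Dnajc9 (0.55), Dnajc28 (0.87) and Dnajc12 (1.70). With library totals alone 15 members had a lower and 6 a higher response in KO, as did 711 and 2388 of all 15208 genes tested. Under that scaling the difference did not pass for Bag6 (-0.37, 0.057), Dnaja1 (-0.91, 0.0612), Hspa4 (-0.42, 0.086), Dnajc27 (-0.41, 0.0879), Cct2 (-0.35, 0.092), Dnajc16 (-0.34, 0.115), Dnajb12 (-0.27, 0.137), Dnajb1 (-0.60, 0.162), Dnajc30 (-0.28, 0.236), Hsf1 (-0.27, 0.274), Cct8 (-0.26, 0.317), Cct4 (-0.24, 0.372) and Cct5 (-0.18, 0.498), each with its adjusted p. The call for Dnajc9 ended without cold KO pool 2 or 3 or room-temperature KO pool 4 or 5 or cold WT pool 1 or room-temperature WT pool 1 or 3 (0.45 to 0.59, adjusted p = 0.0512 to 0.0959). The call for Dnajb6 ended without cold KO pool 1 or 2 or room-temperature KO pool 4 or 6 or cold WT pool 2 or 3 or room-temperature WT pool 2 or 3 (0.37 to 0.47, adjusted p = 0.0745 to 0.13). The call for Dnajc30 ended without cold KO pool 1 or 2 or room-temperature KO pool 4 or 6 or cold WT pool 1 or 2 or room-temperature WT pool 2 or 3 (-0.55 to -0.37, adjusted p = 0.0548 to 0.17), and that of Cct5 ended without cold KO pool 3 or room-temperature KO pool 5 or cold WT pool 1 or 2 or room-temperature WT pool 1 or 3 (-0.41 to -0.35, adjusted p = 0.0557 to 0.0932). That of Cct4 ended without room-temperature WT pool 3 (-0.42, adjusted p = 0.0518), of Cct8 without cold WT pool 2 (-0.44, adjusted p = 0.0508) and of Dnajb12 without cold WT pool 2 (-0.43, adjusted p = 0.0513). Groups of 3 pools are too small for a rule on single outlying pools.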

How the results depend on the processing

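Over all alternatives run, 2462 of the values of named genes kept their direction and side of the threshold, 159 kept the direction but lost the call, 2 gained one and 21 changed sign. The 2 gained were Hspa9 for cold in KO, with DESeq2 (0.22) and voom (0.25). With library totals alone, members higher and lower in KO numbered 26 and 4 at room temperature and 22 and 12 in the cold, and 15 had a lower cold response in KO. Over all 15208 genes these numbers were 4739 and 1267, 7881 and 1073, and 711. Without the 2 pools richest in muscle transcripts, 7 members were lower in KO at room temperature, 3 fell in the cold in KO, and 2 had a higher cold response in KO. Calls of Hspa4l, Hsp90aa1, Hspa9, Hspd1, Dnaja3 and Dnajc19 at room temperature and of Bag3, Cct3, Dnaja4, Hsf1, Hspd1 and Hspe1 for cold in KO then ended. With voom 10 fell in the cold in KO.

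Leaving out 1 pool at a time, members higher and lower in KO ranged from 12 to 16 and 11 to 15 at room temperature, and from 8 to 10 and 35 to 38 in the cold. They ranged from 15 to 22 and 2 to 7 for cold in KO, and from 35 to 43 and 6 to 8 for cold in WT. For a higher or lower cold response in KO the ranges were 2 to 5 and 23 to 28. The count falling in the cold in KO was 3 without room-temperature KO pool 6 or cold KO pool 2, and 2 without cold KO pool 1. The count with a higher response in KO was 2 without room-temperature WT pool 3, room-temperature KO pool 4 or cold KO pool 2.

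Between genotypes at room temperature, signs changed with library totals in Hsf2 (0.14), Hsp90ab1 (0.18) and Hspe1 (0.17). In the cold they changed in Cct4 (8.08e-05), Cct5 (0.040), Cct6a (0.015), Dnaja3 (0.011), Hsf2 (0.081), Hspa9 (0.029) and Hspb8 (0.0084). They also changed for cold in WT in Hsf1 (-0.11) and for the difference between cold responses in Hspa9 (0.10). At room temperature Hsp90ab1 changed sign with voom (0.0095) and without KO pool 4 (0.028), and Hspe1 with voom (0.010) and without WT pool 1 (0.067). Hsf1 there was -0.0052 with no count filter, -0.061 without the 2 muscle-rich pools, -0.0042 without WT pool 2, -0.042 without KO pool 4 and -0.038 without KO pool 6. Leaving out each pool gave -0.042 to 0.13 for Hsf1, -0.090 to 0.028 for Hsp90ab1 and -0.17 to 0.067 for Hspe1. The construction of library totals shifts all genes together; otherwise the cause was not tested.

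Replicate numbers did not pair the pools: deviations of pools with the same number correlated at -0.279, -0.0946 and -0.155 between KO and WT in the cold, and at 0.0546, -0.183 and 0.227 between cold and room temperature in WT. A fit with the replicate block on the 9 pools numbered 1 to 3 gave 11 members higher in KO and 42 lower for the cold, and 38 higher and 7 lower for cold in WT. No paired analysis was possible for the other comparisons because the KO pools at room temperature carry numbers of their own. Requiring 3 adjoining units in place of GAANNTTC gave 7.02% of member promoters, against 24.6%. With the longest transcript as length, 9 of the 10 highest members per length remained. Genes at a few reads, Hspa1a in WT at room temperature among them, rest on little depth.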
